A study of Homo sapiens and Mus musculus with 7 samples.

Results

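The genes described are those of the ubiquitin-conjugating enzymes, or E2s, taken as every gene of the HEL expression table whose symbol starts with UBE2. The rule found 36 genes of 14920, with 72 transcripts of 24408. HEL is a human erythroleukaemia cell line that carries both erythroid and megakaryocytic genes, and hemin, the oxidised form of haem, drives it to make haemoglobin. RNA was sequenced from HEL cells with KAP1 knocked down, without hemin or after 5 days in hemin at 50 µM, and from KAP1 WT HEL cells, again without hemin or after 5 days at 50 µM. KAP1, encoded by TRIM28, is a co-repressor that KRAB zinc finger proteins bring to DNA. The method of knockdown is not stated in the sources used here. The control columns are headed Ctrl and were taken as the KAP1 WT libraries, the only other HEL genotype in the labels. Each of the 4 groups was a single library from 250 ng of RNA. No group therefore has a spread between samples of its own. An additive model of knockdown and hemin over the 4 libraries would leave 1 residual degree of freedom, the interaction itself; it was not used, no test was made, and every comparison below describes the libraries compared.

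Ubiquitin is passed from an activating enzyme (E1) to the active cysteine of an E2, and from there, with the help of a ligase (E3), to a protein or to another ubiquitin. The E2 often sets which kind of chain is built, and with it whether the target goes to the proteasome, to repair or to signalling. Some E2s carry a relative of ubiquitin instead, such as SUMO, NEDD8 or ISG15, and some UBE2 symbols name variants without an active cysteine or pseudogenes. In maturing red cells the system clears proteins and ribosomes that the finished cell does not keep.

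Levels are in scaled TPM, that is, reads per transcript length brought to a common library size, and the transcript of highest mean value stands for each gene. Log2 ratios are of the level plus 0.5. Intervals are exact at 95% on the reads and cover counting error only. The libraries held 23529352 reads on the chosen transcripts in knockdown cells without hemin, 41222452 in knockdown cells with hemin, 33529355 in control cells without hemin and 37148916 in control cells with hemin, so the knockdown without hemin was the shallowest. TRIM28 was at 317 scaled TPM in knockdown cells without hemin, against 421 in its control, and at 190.1 in knockdown cells with hemin, against 400.0 in its control. Its log2 ratios were -0.41 and -1.07, from a row of whole numbers unlike the other rows, so they carry no interval. That row was scaled for depth like the others, but whether its whole numbers carry depth is not known. The TRIM28 levels, and the size of the knockdown without and with hemin, are therefore uncertain. Of the erythroid markers, the fetal globin gene HBG1 was at 5916 and 25950 scaled TPM in knockdown cells without and with hemin, and at 5610 and 22620 in control cells. All 7 erythroid and all 4 megakaryocytic markers searched for were expressed, but they did not keep together between libraries. EPOR was at 20.5 and 28.3 scaled TPM in knockdown cells without and with hemin, against 49.1 and 78.3 in control cells, and with hemin KLF1 was at 111.2 in knockdown cells and 179.2 in control cells. Of the megakaryocytic genes with hemin, ITGA2B was at 874 in knockdown cells and 891 in control cells, PF4 at 68.8 in knockdown cells and 14.5 in control cells, and GP1BA at 144.6 in knockdown cells and 47.6 in control cells. Their part in the results below was not tested. The liver gene ALB stayed under 0.78 in every library.

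Most E2 genes were expressed well above the typical gene of these cells. A level of 5 scaled TPM in at least 1 library was reached by 32 of the 36, and 17 were at 50 or more in all 4 libraries. The median member stood at 62.2 and 66.3 scaled TPM in knockdown cells without and with hemin and at 48.9 and 54.3 in control cells, against 15.7, 16.7, 16.1 and 16.5 for the median of all genes in the same libraries. All members together summed to 2680 scaled TPM in each knockdown library, to 2543 in control cells without hemin and to 2497 in control cells with hemin.

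**Figure D1:**
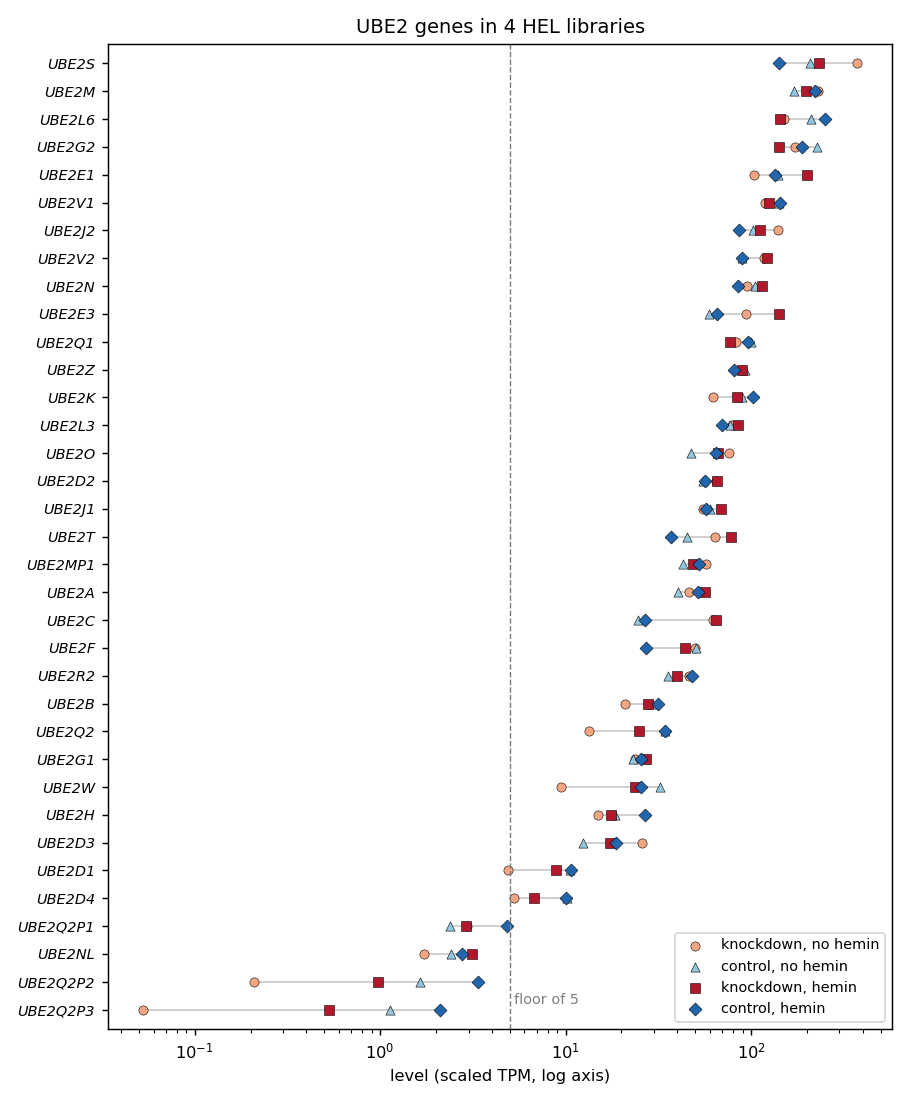
Level of 35 of the 36 UBE2 genes (rows, ordered by mean level) in scaled TPM on a log axis, with 1 symbol per library and a grey line from the lowest to the highest library. The dashed line marks the floor of 5 scaled TPM, which 4 genes did not reach in any library; UBE2S, UBE2M and UBE2L6 had the highest mean levels.

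UBE2S, which lengthens ubiquitin chains on targets of the anaphase-promoting complex (APC/C), had the highest mean level, 238 scaled TPM. UBE2M, the main E2 of NEDD8, averaged 205 scaled TPM and was at 229.5 and 198.6 in knockdown cells without and with hemin, against 169.6 and 222.3 in control cells. UBE2L6, the E2 of the interferon-induced modifier ISG15, averaged 189 scaled TPM. The order differed by library: in control cells without hemin UBE2G2 stood first at 228 scaled TPM, with UBE2L6 at 212 and UBE2S at 207 next. With 1 library per group, neighbours in this order cannot be told apart beyond counting error. At the other end, UBE2Q2P3, UBE2Q2P2, UBE2NL and UBE2Q2P1 stayed under the floor in all 4 libraries, the highest of their values being 4.82 scaled TPM for UBE2Q2P1 in control cells with hemin. UBE2Q2P3 was at 0.053 and 0.53 scaled TPM in knockdown cells without and with hemin, against 1.13 and 2.11 in control cells. UBE2Q2P2, another pseudogene of the same parent, was at 0.21 and 0.97 in knockdown cells, against 1.64 and 3.37 in control cells. UBE2NL, an intronless copy of UBE2N, was at 1.72 and 3.12 in knockdown cells, against 2.42 and 2.77 in control cells. UBE2Q2P2 and UBE2Q2P3 share a transcript row, and reads of these copies, of UBE2NL and of UBE2MP1 may be split with UBE2Q2, UBE2N and UBE2M, so their values are uncertain. UBE2MP1, the pseudogene of UBE2M, had log2 ratios of knockdown over control of 0.40 without hemin and -0.10 with it. UBE2E2, UBE2U and UBE2QL1 were not analysed here.

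Between knockdown and control without hemin, the family's ratios lay on both sides of 0. The median log2 ratio of the 32 members at the floor was -0.05, against 0.03 over the 10879 genes compared, with 15 members above 0 and 17 below. UBE2C and UBE2D3 were at least 2-fold higher in knockdown cells, 2 of 32 members, where 6.74% of all genes were. UBE2D1, UBE2Q2 and UBE2W were at least 2-fold lower, 3 of 32, where 6.43% of all genes were. Either share of 32 comes to about 2 genes, so the counts are near the background. With hemin, UBE2C, UBE2E3 and UBE2T were at least 2-fold higher in knockdown cells, 3 of 32 members beside 6.01% of the 10904 genes compared. No member was 2-fold lower there, beside 4.11% of all genes. The median log2 ratio with hemin was -0.003 for members and 0.01 for all genes.

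At a limit of 1.5-fold, chosen after seeing the data, 5 members were higher and 4 lower in knockdown cells without hemin, beside 17.8% and 17.1% of all genes. With hemin 5 were higher and 2 lower, beside 15.1% and 12.8%. UBE2C, UBE2S and UBE2E3 were the 3 members past that limit upward in both comparisons, 3 of 32 beside 9.0% of the 10621 genes at the floor in both. None of the 32 was past it downward in both, beside 6.77% of those genes. About 3 genes of 32 would make up the first share, so neither count is read as a result about the family.

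**Figure D2:**
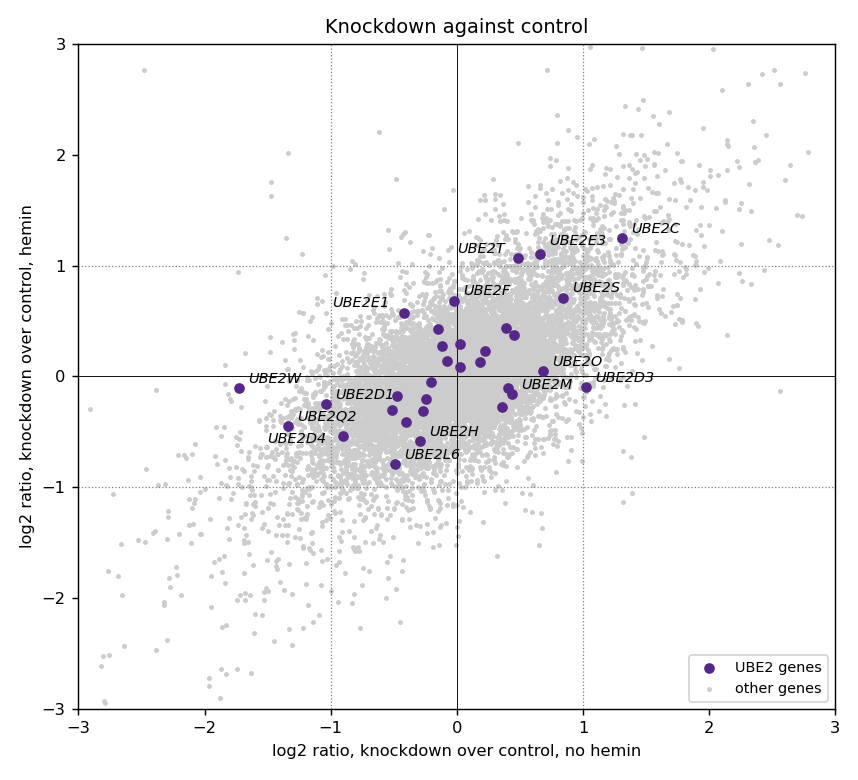
Log2 ratio of knockdown over control without hemin (x axis) and with hemin (y axis) for the 32 UBE2 genes at the floor (purple) and the other genes (grey); dotted lines mark 2-fold, and 37 of 10621 genes lie outside the axes. UBE2C is past 2-fold on both axes, and UBE2W, UBE2Q2, UBE2D1 and UBE2D3 are past it only on the x axis.

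The 3 E2s that work with the APC/C, the ligase that marks mitotic proteins for destruction, did not move together. UBE2C, which places the first ubiquitins on APC/C targets, was at 62.1 scaled TPM in knockdown cells and 24.7 in control cells without hemin, and at 64.4 in knockdown cells and 26.9 in control cells with hemin. Both knockdown libraries were thus above both control libraries. Hemin made little difference on either side for the transcript that stands for the gene, but its transcripts varied, as given below. The log2 ratio of knockdown over control was 1.31 (counting interval 1.13 to 1.53) without hemin and 1.25 (1.10 to 1.43) with it. UBE2S, which extends the chains that UBE2C starts, was at 372 scaled TPM in knockdown cells and 207 in control cells without hemin, and at 232 in knockdown cells and 142 in control cells with hemin. It was higher in knockdown cells on both sides of the hemin treatment, with log2 ratios of 0.84 and 0.71, and lower with hemin in both backgrounds, at -0.68 in knockdown cells and -0.55 in control cells. UBE2D1, which can replace UBE2C at the APC/C and serves many other ligases, was at 4.91 scaled TPM in knockdown cells and 10.6 in control cells without hemin. With hemin it was at 8.93 in knockdown cells and 10.7 in control cells, so the library that stood low was the knockdown without hemin. Its log2 ratio was -1.04 (-1.39 to -0.84 by counting) without hemin and -0.25 (-0.44 to -0.08) with it. That call of UBE2D1 was near the limit: without the trimmed-mean factor, or with a pseudocount of 2, it no longer reached 2-fold.

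Mitotic genes outside the family were higher in knockdown cells as well. Of 9 mitotic genes reaching the floor, 6 were at least 2-fold higher in knockdown cells without hemin and 8 with hemin, with median log2 ratios of 1.40 and 1.43. PLK1, a mitotic kinase, was at 130.1 and 93.2 scaled TPM in knockdown cells without and with hemin, against 40.4 and 33.6 in control cells. CDK1 was the member of that list below 0 without hemin, at -0.46, and it stood at 1.02 with hemin. Whether the share of dividing cells plays a part in the UBE2C and UBE2S values was not tested. In bulk RNA, more cells that express a gene and more RNA of it per cell cannot be told apart. Among 16 APC/C subunits, activators and inhibitors, CDC20 at 1.40 and CDC26 at 1.16 were at least 2-fold higher in knockdown cells without hemin, and ANAPC16 was lower at -1.34. With hemin 1 of the 16, the inhibitor FBXO5, was at least 2-fold higher in knockdown cells, at 1.26, and none was lower. The median over the 16 was -0.11 without hemin and -0.02 with it. CDC20 is on both lists. With hemin against no hemin, ANAPC13 was 2-fold higher in knockdown cells, at 1.00, and ANAPC10 in control cells, at 1.03.

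**Figure D3:**
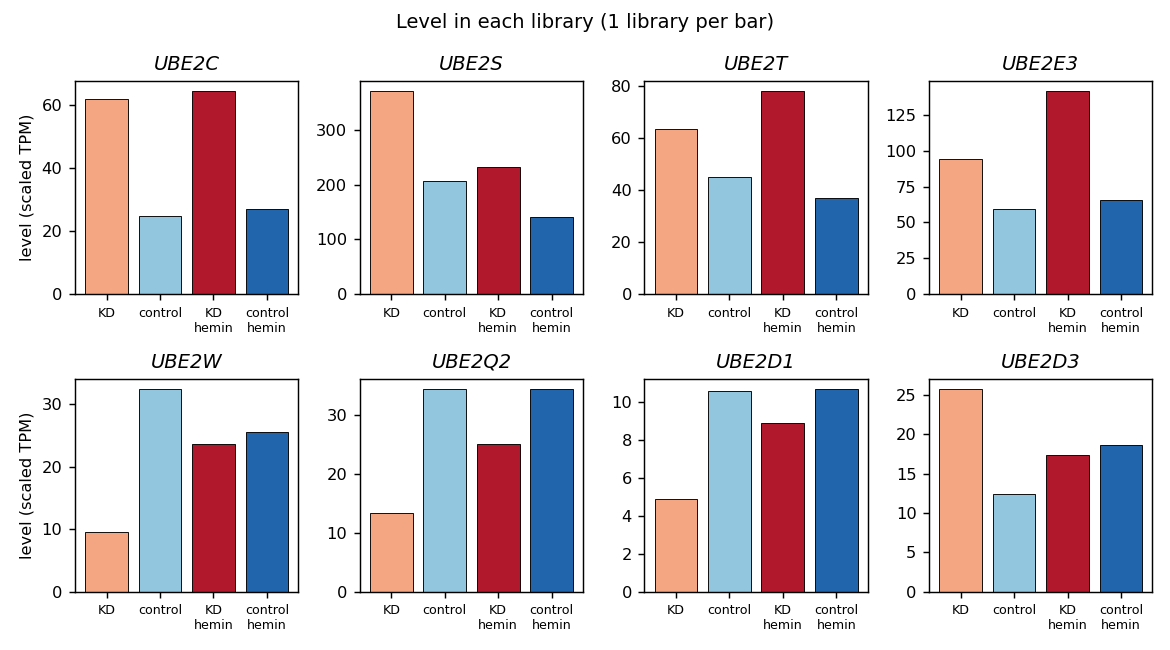
Level in scaled TPM (y axis from 0, scale set for each gene) of 8 UBE2 genes, with 1 library per bar in the order knockdown and control without hemin, then knockdown and control with hemin. UBE2C, UBE2S, UBE2T and UBE2E3 are higher in both knockdown libraries than in their controls, while UBE2W, UBE2Q2 and UBE2D1 are lowest in knockdown cells without hemin.

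UBE2C has 6 transcripts in the table. All 6 were higher in knockdown cells, with log2 ratios between 0.96 and 1.84 without hemin and between 1.07 and 1.26 with hemin. For hemin over no hemin the 6 ran from -0.66 to 0.43 in knockdown cells and from 0.08 to 0.29 in control cells. Transcripts of a gene share exons and therefore reads, so these are not independent readings. UBE2D3, a broad E2 of the same subfamily as UBE2D1, was less uniform with hemin. Its representative transcript was at 25.8 scaled TPM in knockdown cells and 12.4 in control cells without hemin, and at 17.4 in knockdown cells and 18.7 in control cells with hemin, which gave log2 ratios of 1.03 (0.82 to 1.30) and -0.10 (-0.30 to 0.10). Its 8 transcripts ranged from 0.28 to 1.43 without hemin and from -0.21 to 0.46 with it. The 0.28 and the 0.46 come from a transcript under the floor, with few reads. Transcripts with at least 100 reads in a library ranged from 0.71 to 1.43 without hemin and from -0.21 to 0.44 with it. When the transcript with the most recovered reads stood for the gene, or with a pseudocount of 2, UBE2D3 was no longer 2-fold apart. Recovered reads can come out divided by a shared factor, so that transcript may not be the one with the most reads.

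**Figure D4:**
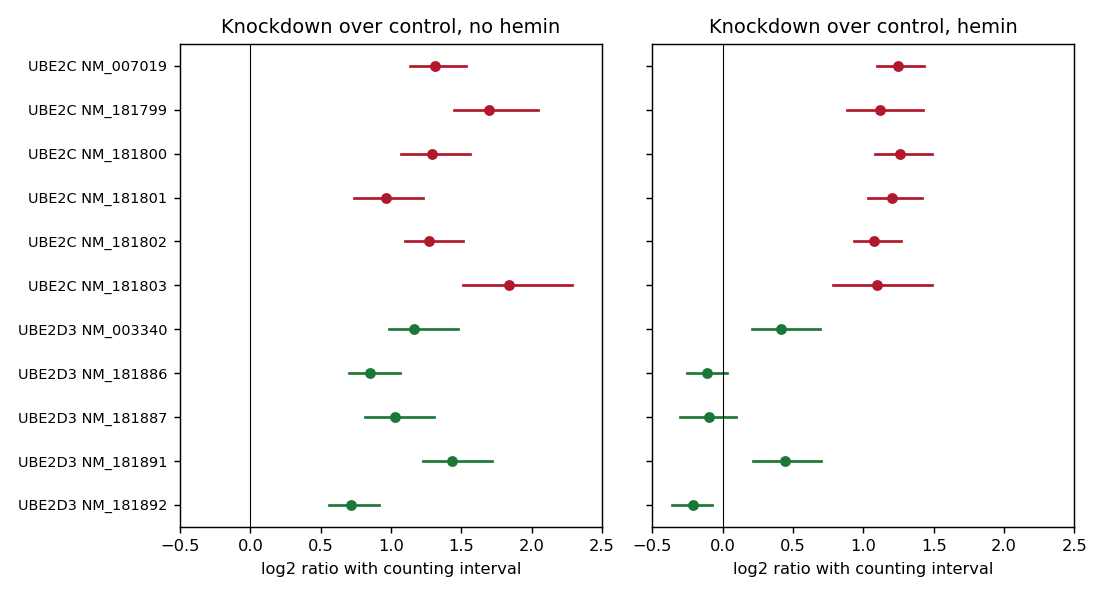
Log2 ratio of knockdown over control (points) with its 95% counting interval (lines) for the 11 transcripts of UBE2C (red) and UBE2D3 (green) with at least 100 reads in a library, without hemin on the left and with hemin on the right. All UBE2C transcripts lie above 0 in both panels, while those of UBE2D3 lie above 0 without hemin and on both sides of it with hemin.

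Among the 7 E2 genes and E2 variants of DNA repair and chromatin, UBE2T and UBE2W stood out. UBE2T, the E2 that works with the ligase FANCL in the Fanconi anaemia pathway of crosslink repair, was at 63.6 scaled TPM in knockdown cells and 45.2 in control cells without hemin, and at 78.2 in knockdown cells and 37.0 in control cells with hemin. Its log2 ratio of knockdown over control was 0.49 (0.34 to 0.65) without hemin and 1.07 (0.94 to 1.21) with it. UBE2W, which attaches ubiquitin to the amino end of proteins, was at 9.48 scaled TPM in knockdown cells and 32.4 in control cells without hemin, and at 23.7 in knockdown cells and 25.6 in control cells with hemin. The knockdown without hemin was the low library, and the other 3 lay between 23.7 and 32.4. The log2 ratio was -1.72 (-1.93 to -1.63) without hemin, the lowest of the 32 members, and -0.11 (-0.20 to -0.02) with it. Its 2 transcripts gave -1.78 and -1.72 without hemin.

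The other 5 of this group differed by less than 1.5-fold between knockdown and control. UBE2A and UBE2B are close relatives that serve RAD18 at stalled replication forks and RNF20 and RNF40 on histone H2B. The log2 ratios without and with hemin were 0.18 and 0.13 for UBE2A, and for UBE2B -0.48 and -0.17. The transcripts of UBE2A lay on both sides of 0 without hemin, from -0.35 to 0.18, and ran from 0.03 to 0.14 with it. UBE2N builds non-degradative chains with UBE2V1 or UBE2V2, variants that have no active cysteine. UBE2N had -0.15 and 0.43, UBE2V1 -0.25 and -0.20, and UBE2V2 0.39 and 0.44. Of 10 ligases that partner these E2s, RNF8, which marks chromatin at breaks, was at least 2-fold higher in knockdown cells without hemin, at 1.05, and BRCA1 was with hemin, at 1.30. None of the 10 was 2-fold lower. FANCL itself had -0.16 and 0.34.

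Promoter windows from RefSeq (GRCh38.p14, 250 bases before to 50 after the start) were available for 24 of the 36 members. They were searched on both strands for TTTGAA, the letters of the cell cycle homology element known from genes of late cell division, and for CCAAT, the letters of the CCAAT box; the letters do not overlap. UBE2T is shown because its window held both, and UBE2E3 and UBE2D1 as members that were higher and lower in knockdown cells; UBE2C and UBE2W are named only. Capitals mark the matches.
UBE2T, chr1:202341887-202342186, minus strand: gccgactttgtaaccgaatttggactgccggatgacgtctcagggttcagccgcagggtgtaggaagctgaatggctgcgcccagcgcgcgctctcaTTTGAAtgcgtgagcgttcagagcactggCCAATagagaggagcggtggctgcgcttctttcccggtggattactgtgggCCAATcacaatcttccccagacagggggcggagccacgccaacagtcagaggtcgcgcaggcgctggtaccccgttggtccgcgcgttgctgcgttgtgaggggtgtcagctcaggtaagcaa
UBE2E3, first start, chr2:180980110-180980409, plus strand: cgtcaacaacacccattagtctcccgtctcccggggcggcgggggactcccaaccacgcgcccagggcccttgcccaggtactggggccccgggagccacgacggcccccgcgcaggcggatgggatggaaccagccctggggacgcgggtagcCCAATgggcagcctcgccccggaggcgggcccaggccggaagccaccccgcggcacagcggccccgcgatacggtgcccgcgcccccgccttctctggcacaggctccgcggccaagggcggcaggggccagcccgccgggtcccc
UBE2D1, chr10:58334756-58335055, plus strand: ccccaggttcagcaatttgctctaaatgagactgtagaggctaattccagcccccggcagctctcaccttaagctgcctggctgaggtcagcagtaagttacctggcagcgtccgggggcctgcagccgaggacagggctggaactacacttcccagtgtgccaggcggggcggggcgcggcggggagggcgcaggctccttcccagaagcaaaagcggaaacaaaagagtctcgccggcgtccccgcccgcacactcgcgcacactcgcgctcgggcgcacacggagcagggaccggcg
In UBE2T, TTTGAA began 153 bases before the start and CCAAT 124 and 73 bases before it. In UBE2E3, CCAAT began 96 bases before the start, and UBE2D1 held neither. TTTGAA was in a window of 2 members and CCAAT in a window of 8, each member counted once. Some members have several windows, so these counts of genes cannot be set against the shares of windows that follow. Of 35116 promoter windows of this length, 15.2% held TTTGAA, 34.6% held CCAAT and 5.9% held both. A match says only that the letters are there. No expression value was read by these coordinates, since the study's notes name build hg19.

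The broad E2s, a group of E2s that serve various ligases, went different ways. UBE2E3 was at 94.5 scaled TPM in knockdown cells and 59.5 in control cells without hemin, and at 141.5 in knockdown cells and 65.6 in control cells with hemin. Its log2 ratio was 0.66 (0.56 to 0.77) without hemin and 1.10 (1.03 to 1.19) with it, and its other transcript gave 0.74 and 1.09. UBE2E1, of the same subfamily, was at 104.4 scaled TPM in knockdown cells and 139.6 in control cells without hemin, but at 200.4 in knockdown cells and 134.6 in control cells with hemin. The knockdown was therefore below its control without hemin (log2 ratio -0.42) and above it with hemin (0.57). UBE2D2 had 0.22 without hemin and 0.23 with it. UBE2D4 was at 5.26 scaled TPM in knockdown cells and 10.2 in control cells without hemin (log2 ratio -0.90), and at 6.78 in knockdown cells and 10.1 in control cells with hemin (-0.53). UBE2L3, the E2 best known for serving parkin and the linear chain ligase, had 0.03 and 0.29. UBE2R2, a partner of cullin ligases, had 0.36 and -0.27.

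UBE2Q2, an E2 with a long amino-terminal extension, was at 13.3 scaled TPM in knockdown cells and 34.4 in control cells without hemin, and at 25.0 in knockdown cells and 34.3 in control cells with hemin. The controls were level and the knockdown without hemin lowest. Its log2 ratio was -1.34 (-1.58 to -1.16) without hemin and -0.44 (-0.59 to -0.32) with it. UBE2Q1, its paralog, had -0.27 and -0.31.

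Transcript length moved with the comparison without hemin. Over all genes, split into 4 equal classes by relative transcript length, the median log2 ratio of knockdown over control ran 0.24, 0.09, -0.02 and -0.18 without hemin, shortest to longest, and 0.12, -0.002, -0.01 and -0.06 with hemin. UBE2C, UBE2S, UBE2T and UBE2E3 fell in class 1, the shortest, and UBE2D1, UBE2D4 and UBE2W in class 3, on the side of 0 where the median of their class lay. In class 3 that median was only -0.02 without hemin. Other members went against the median of their class: UBE2L6, at -0.49, was in class 1 and UBE2O, at 0.69, in class 4. UBE2Q2, at -1.34, also came out in class 1, but its recovered reads may have been divided by a shared factor. Its chosen transcript had 243 reads at 13.3 scaled TPM in knockdown cells without hemin, and its other transcript 406 at 11.6. The class of UBE2Q2 is therefore uncertain. The part of length in all these members was not tested.

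By the transcript that stands for each gene, E2s of endoplasmic reticulum quality control stayed within 1.5-fold. UBE2J1 and UBE2J2 are anchored in the membrane of that organelle, and UBE2G1, UBE2G2 and UBE2K serve its ligases. UBE2J2 was at 140.3 and 111.9 scaled TPM in knockdown cells without and with hemin, against 102.3 and 86.4 in control cells, and had log2 ratios of 0.45 and 0.37. UBE2G2 was at 172 and 142 in knockdown cells, against 228 and 189 in control cells, and had -0.41 and -0.41. UBE2K had -0.52 and -0.30, UBE2J1 -0.12 and 0.27, and UBE2G1 0.03 and 0.08. The transcripts of UBE2K ran from -0.81, past 1.5-fold, to -0.52 without hemin and from -0.33 to -0.30 with it. Of the 8 ligase components of that organelle at the floor, the adaptor SEL1L was at least 2-fold lower in knockdown cells without hemin, at -1.14, and none was 2-fold apart with hemin.

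E2s that carry ubiquitin-like proteins were not 2-fold apart between knockdown and control. UBE2M, the main NEDD8 E2, had log2 ratios of 0.44 without hemin and -0.16 with it, and UBE2Z, which is charged by UBA6, had -0.08 and 0.14. UBE2F, the second NEDD8 E2, was at 49.8 scaled TPM in knockdown cells and 50.5 in control cells without hemin, and at 44.0 in knockdown cells and 27.2 in control cells with hemin. The control with hemin was thus the low library for UBE2F, and its log2 ratios of knockdown over control were -0.02 and 0.68. UBE2L6 was at 150.7 and 143.4 scaled TPM in knockdown cells without and with hemin, against 211.6 and 249.1 in control cells. Both knockdown libraries lay below both controls, with log2 ratios of -0.49 and -0.79. None of 5 genes of the ISG15 system was 2-fold apart in any comparison, and all 5 lay above 0 in knockdown over control: ISG15 had 0.52 and 0.44, and UBA7, the E1 of ISG15, had 0.02 and 0.06. Among 6 interferon-induced genes at the floor, BST2 was at least 2-fold lower in knockdown cells, at -1.51 without hemin and -1.91 with it.

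The remaining E2s tied to red cell maturation are UBE2O, a joint E2 and E3 that clears ribosomal proteins from mouse reticulocytes, and UBE2H, the partner of the CTLH ligase. UBE2O was at 76.5 scaled TPM in knockdown cells and 47.4 in control cells without hemin, and at 66.7 in knockdown cells and 64.6 in control cells with hemin. The control without hemin stood low, and the log2 ratios were 0.69 and 0.05. UBE2H was at 15.0 scaled TPM in knockdown cells and 18.5 in control cells without hemin, and at 17.7 in knockdown cells and 26.8 in control cells with hemin. It was lower in knockdown cells on both sides, by log2 ratios of -0.29 and -0.59. Of 11 CTLH components, YPEL5 was at least 2-fold lower in knockdown cells without hemin, at -1.42, and with it, at -1.65. The medians over the 11 were -0.42 and -0.37.

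Few members were 2-fold apart between hemin and no hemin, as few genes of the whole table were. In the knockdown, UBE2W was at least 2-fold higher with hemin, 1 of 32 members beside 2.31% of 10828 genes, and no member was 2-fold lower, beside 1.7%. In the control, no member was 2-fold higher or lower, beside 2.6% and 2.59% of 10799 genes. At 1.5-fold, 4 members were higher and 1 lower with hemin in knockdown cells, beside 12.1% and 10.7% of all genes. At the same limit, 0 were higher and 1 lower in control cells, beside 9.26% and 8.21%. The median log2 ratios of members were 0.06 in knockdown cells and 0.01 in control cells.

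UBE2W had a log2 ratio of hemin over no hemin of 1.28 (1.17 to 1.47) in knockdown cells and -0.34 (-0.43 to -0.25) in control cells. UBE2E1 had 0.94 in knockdown cells and -0.05 in control cells. UBE2Q2 had 0.89 in knockdown cells and -0.004 in control cells, and UBE2D1 had 0.80 in knockdown cells and 0.01 in control cells. For UBE2W, UBE2Q2 and UBE2D1 the ratio in knockdown cells goes with the low library, the knockdown without hemin. For UBE2E1 that library was the lowest of the 4 and the knockdown with hemin the highest. Over all genes the median ratio in knockdown cells ran -0.11, -0.04, 0.02 and 0.14 from the shortest to the longest class of transcripts. UBE2S was lower with hemin in both backgrounds, as given above. UBE2F was at -0.18 in knockdown cells and -0.88 in control cells. By its representative transcript, UBE2D3 was at -0.55 in knockdown cells and 0.58 in control cells. UBE2C had 0.05 in knockdown cells and 0.12 in control cells, where the mitotic list had medians of -0.35 and -0.52. Those UBE2C values are of the transcript that stands for it, and its transcripts ran from -0.66 to 0.43 in knockdown cells.

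**Figure D5:**
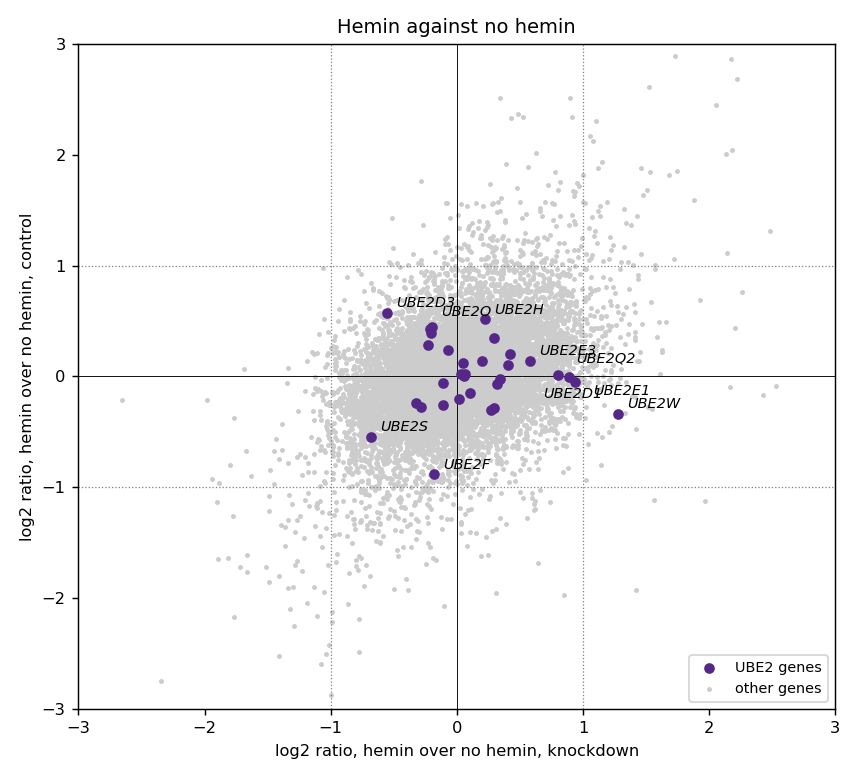
Log2 ratio of hemin over no hemin in knockdown cells (x axis) and in control cells (y axis) for the 32 UBE2 genes at the floor (purple) and the other genes (grey); dotted lines mark 2-fold, and 16 of 10465 genes lie outside the axes. UBE2W is past 2-fold in knockdown cells and below 0 in control cells; UBE2S is below 0 on both axes.

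Other parts of the conjugation pathway were described by the same limits. None of 10 E1 genes was 2-fold apart in any of the 4 comparisons. UBA6, the E1 of UBE2Z, had a log2 ratio of knockdown over control of -0.64 without hemin and 0.30 with it. Of 12 genes of ubiquitin and its relatives, RPS27A, which encodes ubiquitin fused to a ribosomal protein, was 2-fold lower in knockdown cells without hemin at -1.18. NEDD8 was at 366 scaled TPM in knockdown cells and 185 in control cells without hemin, just short of 2-fold at 0.98. Of 8 E2s and E2 variants without a UBE2 symbol, UEVLD was 2-fold lower in knockdown cells without hemin at -1.02, and CDC34, the paralog of UBE2R2, had 0.54 and -0.22 without and with hemin.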

How the data were processed

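RNA-seq of 4 HEL libraries was analysed; the mouse ChIP-seq peaks of the series were not used here. Per the file headers, the authors deposited RPKM per RefSeq transcript. The submitters' processing notes list Bowtie and hg19 without a version or role; the rest is not stated in the sources used here. The deposited RPKM still carried depth. After division of each column by a factor near 1, the 4 values of a row were whole multiples of a step, which recovered reads for 24533 of 24533 rows without whole numbers (tolerance 0.0002 reads plus 4e-09 of the value). Reads that share a factor come out divided by it, as 7.61% of random sets of 4 would, which widens their intervals and shortens the relative length. Another 5 rows held whole numbers, TRIM28 among them and no UBE2 gene. No value was 0, so genes silent in a library may be missing.

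Levels were divided by the value of a read and by each library's reads on chosen transcripts times a TMM factor (trims 0.3 and 0.05; factors 1.01, 1.03, 0.964 and 0.994 in knockdown cells without and with hemin and the control without and with hemin), with a mean library sum of 1000000. Symbols sharing a chosen transcript were counted once. Genes entered a comparison at 5 scaled TPM in the higher library; log2 ratios used a pseudocount of 0.5, which understates low genes, and 2-fold was the limit. Intervals are exact conditional binomial ones at 95%. The design had foreseen RPKM already scaled to depth. Members named with all values were those 2-fold apart in a comparison and those of highest and lowest mean level, with others by role list. Values of 1 UBE2 gene and of some listed genes are not reported here. The members and the gene lists were chosen with earlier results of these data known. Python 3.11.15, numpy 2.4.6, pandas 2.3.3 and scipy 1.17.1 were used, and the steps were checked on simulated data. Alternatives were other scalings, floors, a pseudocount of 2, another transcript per gene and a 1.5-fold limit.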

Additional observations from a re-analysis of the deposited data

Results flagged for a closer look

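For 12 UBE2 genes the knockdown effect or the hemin effect had opposite signs in the 2 states compared, with counting intervals clear of 0 on both sides; 6 of 32 did so for the knockdown effect and 10 of 32 for the hemin effect. By the same rule 15.1% of all genes did so for the knockdown effect, 19.1% for the hemin effect and 26.3% for either, so opposite signs were common in the whole table. These differences were not tested, since each group was 1 library. The values that follow are the log2 ratio of knockdown over control with hemin minus that without hemin, which equals the hemin ratio in knockdown cells minus that in control cells. UBE2W had 1.614, with hemin higher in knockdown cells and lower in control cells. UBE2E1 had 0.991, with the knockdown above its control with hemin and below it without. UBE2T had 0.579 and UBE2L3 0.261, both higher with hemin in knockdown cells and lower with it in control cells. UBE2N had 0.577 and UBE2J1 0.389, for both effects. UBE2Z had 0.218, for the knockdown effect. Without hemin the intervals of knockdown over control ended at -0.015 for UBE2Z, -0.049 for UBE2J1 and -0.055 for UBE2N. Scaling without the trimmed-mean factor shifted the median of all genes there by 0.069. The hemin interval of UBE2J1 in control cells ended at -0.011, beside a shift of 0.044. These flags therefore hang on the scaling, and no flag was recomputed under another one. UBE2D3 had -1.127, with hemin lower in knockdown cells and higher in control cells. Its transcripts with at least 100 reads in a library ran from -0.111 to 0.595 for hemin in control cells, so the sign there depends on the transcript. UBE2O had -0.639 and UBE2MP1 -0.507, both lower with hemin in knockdown cells and higher with it in control cells. UBE2R2 had -0.635 and UBE2M -0.598, for both effects. UBE2MP1 is a pseudogene of UBE2M and may share its reads, so the 2 are not separate readings.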

How the results depend on the processing

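Counts of members were recomputed under each alternative. With values as deposited, which leave depth in and shift the median of all genes by -0.58, 0.217, 0.159 and 0.946 on the log2 scale (knockdown over control without and with hemin, hemin over no hemin in control and knockdown), 0 members were 2-fold higher and 7 lower in knockdown cells without hemin (1.38% and 23.1% of all genes), and with hemin 17 were higher in knockdown cells (45.9%) and 1 in control cells (4.18%). Without a floor, 5 were lower in knockdown cells without hemin, beside 6.41% of 14920 genes, and 2 were lower with hemin, beside 4.52%. For hemin in knockdown cells 2 were higher, beside 2.61%. The added ones were pseudogenes of UBE2Q2. A pseudocount of 2, or the transcript with the most recovered reads, left 1 member, UBE2C, higher in knockdown cells without hemin. The shares of all genes were 5.41% with that pseudocount and 6.66% with those transcripts. That choice of transcript gave 2 higher with hemin in knockdown cells, beside 2.26% of all genes. At 1.5-fold, a limit chosen after seeing the data, the counts higher and lower were 5 and 4 in knockdown cells without hemin, 5 and 2 with hemin, 0 and 1 for hemin in control cells, and 4 and 1 for hemin in knockdown cells. The shares of all genes at 1.5-fold are those given above. Equal medians gave the same members as the TMM factors in all 4 comparisons. Of 186 recomputed ratios of 8 named genes, 34 moved beyond their counting intervals. The sign changed in 8, none of them for a ratio past 2-fold. With values as deposited UBE2S and UBE2D3 for hemin in knockdown cells had 0.277 and 0.381, UBE2T had -0.087 for knockdown over control without hemin, and with hemin UBE2W and UBE2D3 had 0.103 and 0.111; the other 3 were UBE2Q2 for hemin in control cells, at -0.004 before and up to 0.152. No paired analysis was possible because each comparison sets 1 library against 1, and no replicate could be left out; a fit over both hemin states was not run. Depth limits the low members most: UBE2D1 rested on 154 reads in knockdown cells without hemin.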
